A study of Homo sapiens with 6 samples.

Results

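The nuclear-encoded subunits of respiratory complexes II to V were compared between 2 kidney cancer lines, sunitinib-resistant 786-O (7R) cells and 786-O control cells. The members were the gene rows named SDHA, SDHB, SDHC, SDHD or CYC1, or whose symbol starts with UQCR, with ATP5, or with COX and a digit from 4 to 8 followed by A, B or C. Names of pseudogenes and antisense transcripts were left out. The rule took 48 of 54261 gene rows, with 4 in complex II, 10 in complex III, 15 in complex IV and 19 in complex V. Total RNA of each line was sequenced as 3 libraries, called resistant and control here, with 37919629 to 38131634 counts per resistant library and 48264905 to 52221491 per control library. 786-O is a widely used line from a human clear-cell kidney tumour, and sunitinib is an inhibitor of several receptor tyrosine kinases, among them the VEGF and PDGF receptors. The labels leave unsaid if the cells were under sunitinib at harvest, if 7R is 1 clone, and if separate cultures gave the 3 libraries of each line. A p-value here therefore reflects only how far these libraries scatter, and that scatter can be technical. Resistant replicate 1 stood apart from the other resistant libraries over all genes. In the chi-square comparison of counts, its value per degree of freedom was 62.9 with replicate 2 and 60.1 with replicate 3, while replicates 2 and 3 gave 8.94. Control replicate 1 also stood apart, with 26.5 against replicate 2 and 35.5 against replicate 3, while control replicates 2 and 3 gave 12.4. The counts of calls and the summed ratios are therefore also given without each of these 2 libraries. The extraction text of the labels names a brain region, while their cell line field names 786-O. Of 8 renal carcinoma and tubule markers, 7 were above 1 CPM (counts scaled to a library total of 1e6) in each of the 6 libraries and CA9 was at 0. Of 11 brain markers 3 were, with MOG and GAD2 at 0. The summed renal markers were at 3700 to 4600 CPM in resistant and 12700 to 13900 CPM in control libraries. Most of that sum was VIM, which many cell types express, at 2180 to 2790 CPM in resistant and 9520 to 10300 CPM in control libraries, while PAX8 was at 397 to 414 CPM in resistant and 492 to 584 CPM in control libraries and CDH2 at 407 to 438 CPM in resistant and 358 to 399 CPM in control libraries. The summed brain markers were at 53.1 to 60.3 CPM in resistant and 32.7 to 35.6 CPM in control libraries.

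Complex II, succinate dehydrogenase, passes electrons from succinate to ubiquinone and is also an enzyme of the citric acid cycle. Complex III passes them from ubiquinol to cytochrome c, complex IV (cytochrome c oxidase) passes them from cytochrome c to oxygen, and complexes III and IV pump protons across the inner mitochondrial membrane. Complex V, the ATP synthase, makes ATP as the protons flow back. All subunits of complex II are encoded in the nucleus, whereas the mitochondrial genome encodes cytochrome b of complex III, the catalytic core of complex IV and a pair of membrane subunits of complex V, so those complexes need transcripts from both genomes. In kidney cancer, inherited mutations of the succinate dehydrogenase genes cause a rare tumour type of its own.

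Short stretches of the members' start regions are shown because nuclear respiratory genes are known for shared motifs there, those of the activator NRF1 (GCATGCGC) and of the ETS family, which includes GABP (CCGGAAG). Of the 48 members, 35 had a window of 250 bases before to 50 after the start in the RefSeq table (GRCh38.p14). On either strand the NRF1 core was in 8 of these 35 windows (22.9%) and in 3.68% of the windows of 27305 genes. All 8 stretches follow, read 5′ to 3′ on the gene's strand, with the NRF1 core in capitals on whichever strand it lies.
SDHB: aagccaaatggGCATGCGCcgctactgcgc
SDHD: cagctgtgtttGCGCATGCGCgacgggtgt
COX5B: ggcagagctggGCATGCGCaatttccgccc
COX6A1: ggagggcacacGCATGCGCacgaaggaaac
ATP5C1: ggggagcttcgGCGCATGCGCgctgaggcc
ATP5G2: gcccgggtcacGCATGCGCtgagccttcct
ATP5I: cgccgctgacgGCGCATGCgtgcgcccagc
ATP5J: ccactcaaagaGCGCATGCgtacagagcaa
They lie at chr1:17054214-17054243 (minus strand) for SDHB, chr11:112086752-112086781 (plus) for SDHD, chr2:97645915-97645944 (plus) for COX5B and chr12:120437884-120437913 (plus) for COX6A1. Those of complex V lie at chr10:7788144-7788173 (plus) for ATP5C1, chr12:53676105-53676134 (minus) for ATP5G2, chr4:674336-674365 (minus) for ATP5I and chr21:25735156-25735185 (minus) for ATP5J. In SDHD and ATP5C1 the core occurs on both strands and overlaps itself.

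The ETS core was in 14 of the 35 windows (40%), against 12.2% of all windows. Stretches of 4 members that hold it without an NRF1 core are shown, with the ETS core in capitals.
UQCRQ: aaatggtatctcCCGGAAGttacctcacga
COX6B1: cacctctctcagCTTCCGGctggtagtagt
COX8A: ccagctccagaaCTTCCGGccagcgcagcc
ATP5H: cccgggaagataCTTCCGGaaccagccctc
They lie at chr5:132866576-132866605 (plus) for UQCRQ, chr19:35648299-35648328 (plus) for COX6B1, chr11:63974590-63974619 (plus) for COX8A and chr17:75047053-75047082 (minus) for ATP5H. A core of the factor YY1 (AAGATGGCG), whose first letters can overlap the end of an ETS core, was in 3 windows (8.57%, against 2.14% of all windows), and the SP1 box (GGGCGG) was in 19 (54.3%, against 48.3%). A match describes the letters of the window and no binding was measured.

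Transcripts of the members were mostly lower in the resistant line. Their 41 tested rows summed to 2773, 2385 and 2375 CPM in the resistant libraries, against 3912, 4250 and 4126 CPM in the control libraries. The groups did not overlap, and the ratio of the means was 0.613 ± 0.061 (SD, n = 3 each). These values are scaled by TMM factors, which set the libraries to a common level for most genes. Gene by gene, edgeR's quasi-likelihood test called 26 of the 41 tested members lower and 5 higher at a Benjamini-Hochberg adjusted p of 0.05, while 10 did not pass. Over all 16642 genes tested, 36.9% were lower and 39.3% higher. The members' median log2 fold change, resistant over control, was -0.60, and that of all genes tested was 0.05. Of the members, 12 were lower by at least 2-fold (22.4% of all genes were) and 1 was higher by as much (4488 of all 16642 genes were). Libraries of the lines did not overlap for 26 members lower in resistant cells (39% of all genes) and for 7 higher (41.4%). Scaled by library size alone, the median of all genes was 0.39, which is 0.34 above that with TMM, and 20 members were lower and 9 higher (28.4% and 47.2% of all genes). The members' median stood at -0.65 relative to that of all genes, as it did with TMM. That was set in advance, since other library factors shift all genes by nearly the same amount. Scaling by library size alone turned the sign of 4 members that had not passed, ATP5A1, ATP5H, ATP5I and COX7A2L. In bulk RNA, fewer cells that express a gene and less RNA per cell cannot be told apart.

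A second fit took account of base composition, because fold changes across the whole table followed it. The GC content of the transcripts and the log2 fold change had a Spearman's rho of -0.68 over 14289 tested genes, and of -0.81 over the 41 members. Genes are not independent replicates, and all points share the same 6 libraries. In a fit with an offset for GC content and transcript length, the rho became -0.0020 over all genes and 0.23 over the members. In that fit 30 of the 41 members were lower, 2 were higher and 9 did not pass the test, where 32.6% of all genes were lower and 34.3% higher. The members' median log2 fold change was -0.40, against 0.02 for all genes. Libraries did not overlap for 29 members lower in the resistant line (35.1% of all genes) and for 3 higher (5221 of 14289 genes). Both fits called 23 members lower. The values of the 2 fits are called unadjusted and GC-adjusted below.

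**Figure D1:**
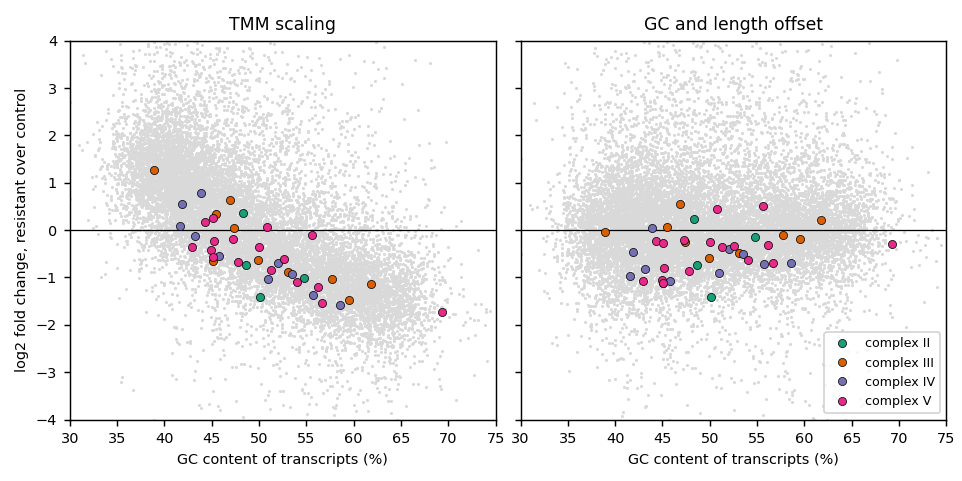
Log2 fold change (resistant over control) against the GC content of a gene's transcripts in percent, unadjusted at left and after the GC and length offset at right. Grey points are tested genes with a GC value, of which those beyond the axes are cut off, and coloured points are the 41 tested members. At left the members follow the downward trend of all genes (rho -0.81), and at right most members lie below 0 at low and high GC content (median -0.40).

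The members' median lay below that of all genes in each of 4 ranges of GC content. In the range under 45% GC, 8 members had a median log2 fold change of 0.13 and all genes 1.04. From 45 to 50% GC, 13 members had a median of -0.22 and all genes 0.15. From 50 to 55% GC, 11 members had -0.88 and all genes -0.53, and at 55% or more 9 members had -1.37 and all genes -1.17. In the GC-adjusted fit the members' medians in these ranges were -0.65, -0.60, -0.40 and -0.30, beside 0.07, -0.01, -0.07 and 0.03 for all genes.

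Among the members, resistant replicate 1 was the highest of the resistant libraries for 30 of the 41 members and the lowest for 6, and its level stood above the mean of the other resistant libraries by a median of 0.12 on the log2 scale, against -0.0028 for all genes. Without it 28 members were lower and 5 higher, and 31 lower and 3 higher in the GC-adjusted fit. The ratio of the summed levels was then 0.578 over all members, 0.484 for complex II, 0.571 for complex III, 0.648 for complex IV and 0.583 for complex V. Without control replicate 1 in its place, 26 members were lower and 5 higher, and 30 lower and 1 higher GC-adjusted. The ratios were then 0.578 over all members, 0.501 for complex II, 0.558 for complex III, 0.634 for complex IV and 0.588 for complex V. The shares of all genes called are not given here for fits that left out a library. These counts of calls therefore stand without a background.

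**Figure D2:**
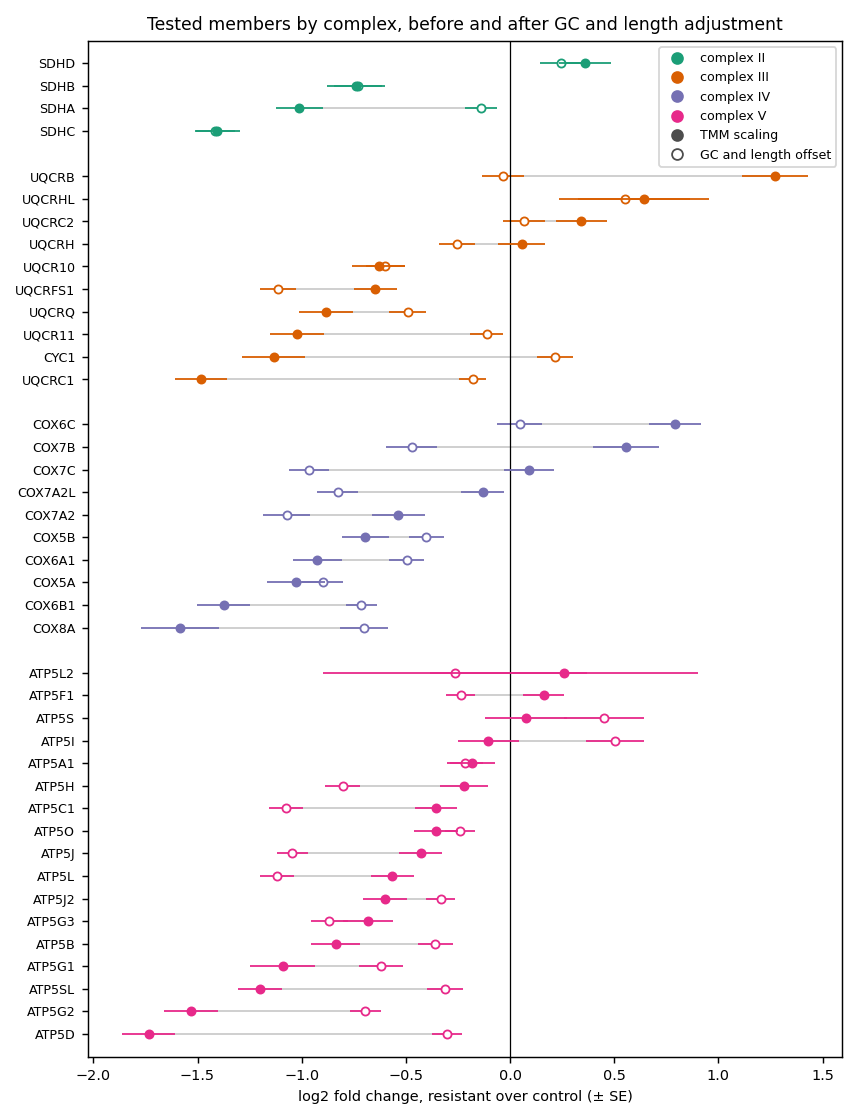
Log2 fold change (resistant over control) with its standard error for the 41 tested members, grouped by complex and ordered by the unadjusted value. Filled points are unadjusted and open points follow the GC and length offset. COX7B, UQCRB and CYC1 cross 0 between the fits, while SDHB and SDHC stay in place.

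Complex II had 3 of its 4 genes lower and 1 higher, where 36.9% of all genes were lower and 39.3% higher. GC-adjusted, 2 were lower and 0 higher by edgeR (1 at an unadjusted p under 0.05), where 32.6% of all genes were lower and 34.3% higher. Its summed level was 324, 265 and 267 CPM in resistant libraries, against 542, 547 and 549.6 CPM in control libraries, a ratio of 0.522 ± 0.062, and of 0.756 ± 0.0538 after GC adjustment. Most of each mean sum was SDHA, with 173 of 285 CPM in resistant and 348 of 546 CPM in control libraries. After GC adjustment SDHA was 246 of 364 CPM in resistant and 271 of 481 CPM in control libraries. SDHC, a membrane anchor that helps bind ubiquinone, was at 31.2, 31.6 and 34.4 CPM in the resistant libraries, against 80.2, 89.7 and 87.7 CPM in the control libraries. The 3 resistant libraries lay close together and far below the control ones, 2.65-fold by the fit. Its log2 fold change of -1.41 ± 0.11 (SE, adjusted p = 3.85e-07) became -1.41 ± 0.092 (adjusted p = 2.18e-07) with the GC and length offset and was the lowest value among the members tested in the GC-adjusted fit. SDHB, the iron-sulfur subunit that carries electrons to ubiquinone, was at 69.8, 48.1 and 50.7 CPM in resistant and 91.97, 93.5 and 96.01 CPM in control libraries. All resistant libraries were below all control libraries, with resistant replicate 1 nearest to them, and the log2 fold change was -0.74 ± 0.14 (SE, adjusted p = 0.000383) unadjusted and -0.73 ± 0.11 (adjusted p = 0.000159) GC-adjusted.

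SDHA, the flavoprotein that oxidises succinate, was at 199.9, 162 and 156 CPM in the resistant libraries, against 350.5, 343 and 349.6 CPM in the control libraries. The control libraries agreed within a few CPM and the resistant ones were 2.02-fold lower. Its unadjusted log2 fold change of -1.01 ± 0.11 (SE, adjusted p = 5.17e-06) shrank to -0.14 ± 0.076 (adjusted p = 0.121) in the GC-adjusted fit and was no longer past the threshold. Without resistant replicate 1 the GC-adjusted difference passed (adjusted p = 0.00836). SDHD, the other membrane anchor, went the opposite way, at 23.4, 23.4 and 25.4 CPM in resistant and 19.5, 20.6 and 16.2 CPM in control libraries. Its resistant libraries were all above its control libraries, by 0.36 ± 0.12 (SE, adjusted p = 0.0188) on the log2 scale, and by 0.24 ± 0.10 (adjusted p = 0.052) after GC adjustment. Leaving out control replicate 3 (adjusted p = 0.141) or resistant replicate 3 (adjusted p = 0.0768) ended the unadjusted call, and the GC-adjusted difference passed without resistant replicate 1 (adjusted p = 0.0414). The GENCODE 29 annotation places exons of SDHC over CFAP126 and of SDHD over TIMM8B on the opposite strand. Since no source used here states the strand setting of the counting, reads of each pair cannot be told apart.

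Complex III was mixed. Of 10 tested genes, 6 were lower and 2 higher, and 5 were lower and 1 higher in the GC-adjusted fit. Of all genes, 36.9% were lower and 39.3% higher unadjusted, and 32.6% and 34.3% GC-adjusted. Summed, they were at 551, 483.5 and 472 CPM in the resistant libraries and 759, 869.6 and 865 CPM in the control libraries, a ratio of 0.604 ± 0.0689 that became 0.898 ± 0.0569 after GC adjustment. CYC1 weighs most in this sum, with means of 136 CPM in resistant and 299 CPM in control libraries. After GC adjustment its means were 228 CPM in resistant and 196 CPM in control libraries. UQCRC1, a core protein on the matrix side of the complex, was at 88.7, 67.3 and 74.2 CPM in the resistant libraries, against 194, 218.5 and 232 CPM in the control libraries. The groups were far apart, 2.80-fold, with a log2 change of -1.49 ± 0.13 (SE, adjusted p = 7.04e-07). In the GC-adjusted fit it was -0.18 ± 0.066 (adjusted p = 0.0302), and that call was lost in 4 of the 6 fits that left out a library.

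CYC1 encodes cytochrome c1, the haem protein that hands electrons to cytochrome c. Its level was 168, 121 and 121 CPM in resistant and 247, 327 and 324 CPM in control libraries. Every resistant library was below every control library, and the unadjusted log2 fold change was -1.13 ± 0.15 (SE, adjusted p = 2.46e-05). The GC-adjusted value had the opposite sign, 0.22 ± 0.086 (adjusted p = 0.0429), with overlapping libraries. It did not pass with an offset for GC content alone (adjusted p = 0.0874), and lost its call in 5 of the 6 fits that left out a library. UQCR11 and UQCRQ are small subunits of the membrane part. UQCR11 was at 22.7, 18.1 and 18.7 CPM in the resistant line, set against 35.4, 42.9 and 42.6 CPM in the control line, with a log2 change of -1.02 ± 0.13 (SE, adjusted p = 1.63e-05) and -0.11 ± 0.079 (adjusted p = 0.232) after GC adjustment. UQCRQ, whose ETS core is shown above, was at 23.9, 20.9 and 18.3 CPM in the resistant line, set against 35.1, 42.6 and 38.9 CPM in the control line. It was lower in both fits, with log2 fold changes of -0.88 (adjusted p = 5.44e-05) and -0.49 ± 0.088 (adjusted p = 0.000428), and its exons overlap GDF9 on the opposite strand.

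UQCRB, a subunit near the ubiquinone site, had the largest increase of all members. It was at 58.8, 83.4 and 75.1 CPM in the resistant libraries, against 31.6, 34.3 and 24.1 CPM in the control libraries, 2.41-fold higher in the resistant line with no overlap. The log2 fold change was 1.27 ± 0.16 (SE, adjusted p = 1.48e-05). At 38.9% its transcripts had the lowest GC content of the tested members, and its GC-adjusted log2 fold change was -0.035 ± 0.10 (adjusted p = 0.774). UQCRC2, the other core protein, was at 64.4, 61.4 and 56.1 CPM in resistant and 54.8, 42.1 and 46.6 CPM in control libraries. The unadjusted difference of 0.34 ± 0.12 (SE, adjusted p = 0.0226) was lost without control replicate 2 (adjusted p = 0.201), control replicate 3 (adjusted p = 0.099) or resistant replicate 2 (adjusted p = 0.0582), and was 0.067 ± 0.10 (adjusted p = 0.571) after GC adjustment.

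UQCRH, the hinge protein between cytochrome c1 and cytochrome c, was at 30.8, 29.2 and 30.4 CPM in resistant and 30.4, 31.1 and 25.5 CPM in control libraries. The lines overlapped and the difference did not pass unadjusted, with a log2 change of 0.055 ± 0.11 (SE, adjusted p = 0.675), whereas the GC-adjusted value was -0.26 ± 0.087 (adjusted p = 0.0216). That call was lost without resistant replicate 2 (adjusted p = 0.0523) and was not made with an offset for GC content alone (adjusted p = 0.292). Its intronless near-copy UQCRHL was at 1.67, 1.24 and 1.74 CPM in resistant and 1.16, 0.714 and 1.10 CPM in control libraries, and reads may have been split between these copies. UQCR10, another small subunit, averaged 34.9 ± 5.98 CPM in the resistant line and 54.04 ± 1.70 CPM in the control line (SD, n = 3 each) and was lower in both fits, with log2 fold changes of -0.63 and -0.60. UQCRFS1, the Rieske iron-sulfur protein, averaged 48.5 ± 2.82 CPM in the resistant line and 75.95 ± 2.01 CPM in the control line (SD, n = 3 each). Its log2 fold change of -0.65 became -1.11 ± 0.086 (adjusted p = 7.4e-07), the largest GC-adjusted decrease of complex III.

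**Figure D3:**
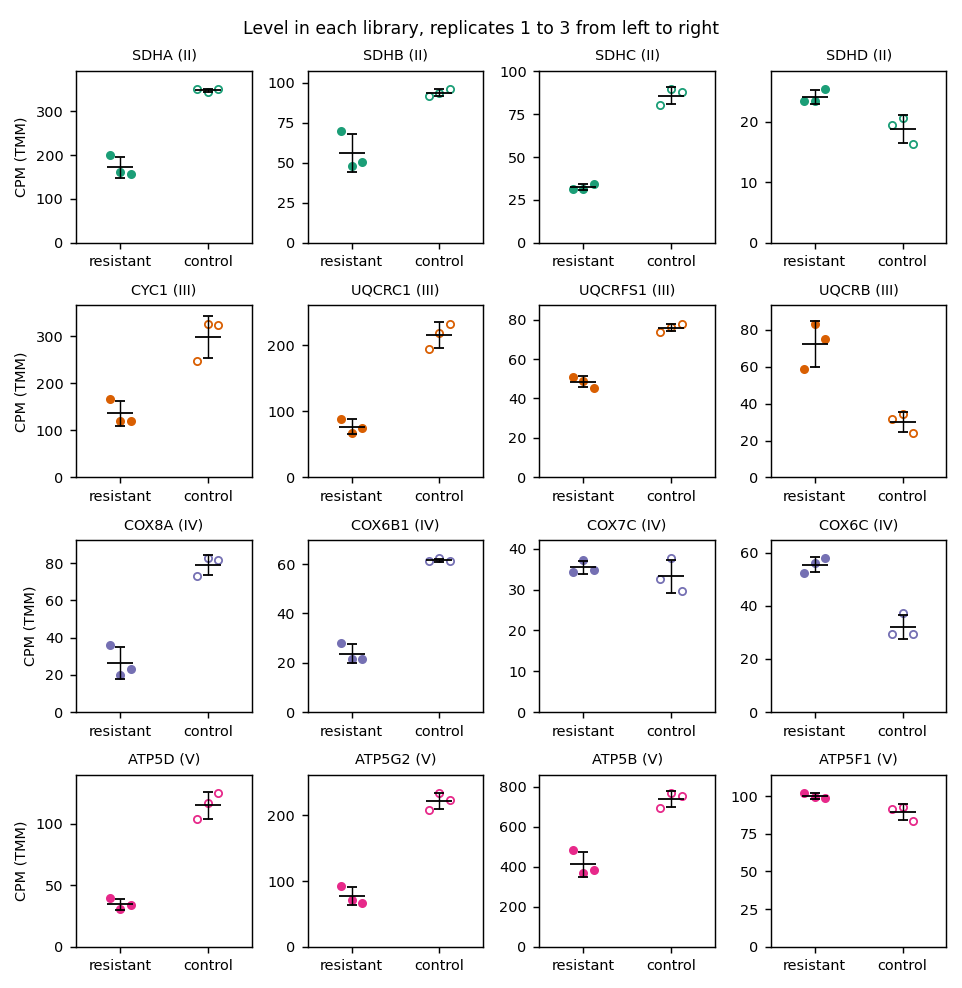
Level of 16 members in each library (TMM-scaled CPM, axes from 0), with resistant libraries as filled points at left and control libraries as open points at right; the bars are means ± SD (n = 3 each). SDHC, COX8A, ATP5D and ATP5G2 are lower in all 3 resistant libraries, UQCRB and COX6C are higher in them, and COX7C overlaps.

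Complex IV had the largest share of members lower in the GC-adjusted fit among the 4 complexes, which were not tested against each other. Of 10 tested members 6 were lower and 2 higher unadjusted, and 9 were lower and 0 higher GC-adjusted, with median log2 fold changes of -0.62 and -0.71. The shares of all genes were 36.9% lower and 39.3% higher unadjusted, and 32.6% and 34.3% GC-adjusted. At an unadjusted p under 0.05 the GC-adjusted edgeR fit also gave 0 higher members. The remaining one, COX6C, was at 0.045 ± 0.11 (adjusted p = 0.721). The summed level was 464.5, 411 and 429.6 CPM in resistant libraries and 610.3, 694 and 629 CPM in control libraries, a ratio of 0.675 ± 0.0623, and 0.657 ± 0.0611 after GC adjustment. COX8A, the ubiquitous form of the smallest subunit, was at 35.98, 19.9 and 23.4 CPM in the resistant libraries, against 72.97, 82.6 and 81.7 CPM in the control libraries. All resistant libraries were far below the control ones, and resistant replicate 1 was the highest of them. The log2 fold change was -1.58 ± 0.19 (SE, adjusted p = 8.55e-06), and -0.70 ± 0.11 (adjusted p = 0.000223) after GC adjustment. COX6B1, which faces the intermembrane space and helps join the monomers of the dimer, was at 28.02, 21.5 and 21.7 CPM in resistant and 61.3, 62.3 and 61.1 CPM in control libraries. Its control libraries agreed closely and its log2 fold change was -1.37 ± 0.13 (SE, adjusted p = 1.23e-06) unadjusted and -0.71 ± 0.076 (adjusted p = 8.54e-06) GC-adjusted.

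COX5A, a matrix-side subunit, was at 20.7, 18.8 and 14.7 CPM in resistant and 33.7, 38.5 and 38.3 CPM in control libraries. The lines did not overlap, and its log2 fold changes of -1.03 ± 0.14 (SE, adjusted p = 2.65e-05) and -0.90 ± 0.099 (adjusted p = 1.01e-05) came from the unadjusted and the GC-adjusted fit. COX6A1, the ubiquitous form of subunit VIa, with the highest level per kilobase in complex IV, was at 119, 89.7 and 107 CPM in the resistant libraries, against 192, 211 and 196 CPM in the control libraries, a log2 change of -0.93 ± 0.12 (SE, adjusted p = 1.6e-05) and of -0.50 ± 0.084 (adjusted p = 0.000277) after GC adjustment. COX5B, a zinc-binding subunit, averaged 40.99 ± 2.94 CPM in the resistant line and 66.3 ± 5.96 CPM in the control line (SD, n = 3 each), and its log2 fold change was -0.69 unadjusted and -0.40 GC-adjusted.

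The 2 higher genes of complex IV had low GC content, 43.9% for COX6C and 41.9% for COX7B. COX6C, a small membrane subunit, was at 52.4, 55.98 and 57.8 CPM in resistant and 29.3, 37.4 and 29.4 CPM in control libraries, a difference of 0.79 ± 0.12 (SE, adjusted p = 9.11e-05) on the log2 scale that was 0.045 after GC adjustment. COX7B, needed for assembly of the complex, was at 35.7, 43.05 and 36.7 CPM in resistant and 26.97, 31.4 and 20.1 CPM in control libraries. Its resistant libraries were all above the control ones, by 0.56 ± 0.16 (SE, adjusted p = 0.00627), yet the GC-adjusted value was -0.47 ± 0.12 (adjusted p = 0.00515), past the threshold in the other direction. COX7C, another small membrane subunit, was at 34.3, 37.2 and 34.8 CPM in the resistant line, set against 32.5, 37.7 and 29.7 CPM in the control line. The lines overlapped (log2 fold change 0.091, adjusted p = 0.497), and the GC-adjusted log2 fold change was -0.96 ± 0.096 (adjusted p = 4.71e-06) with no overlap.

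Subunit VIIa has several forms. COX7A2, the ubiquitous form, was at 27.6, 26.1 and 26.9 CPM in resistant and 34.2, 46.2 and 36.6 CPM in control libraries, lower in both fits with log2 fold changes of -0.54 (adjusted p = 0.00221) and -1.07 ± 0.11 (adjusted p = 8.14e-06). COX7A2L, which holds complexes III and IV together in supercomplexes, was at 67.9, 61.3 and 64.4 CPM in resistant and 66.3, 73.98 and 71.7 CPM in control libraries. It overlapped between lines and did not pass unadjusted (log2 fold change -0.13, adjusted p = 0.264), but was lower after GC adjustment, at -0.83 ± 0.098 (adjusted p = 1.79e-05). COX7A1, the form of heart and skeletal muscle, had 0 counts in all 6 libraries. The other tissue forms COX6A2 (heart and skeletal muscle), COX6B2, COX7B2 and COX8C (testis) were also at 0, which allows up to 3 counts in each library, for counting error only. None of these 5 was tested. In both lines the counts fell on the widely expressed forms.

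COX4I1, COX4I2, NDUFA4 and NDUFA4L2 belong to complex IV but fall outside the naming rule. COX4I1, the common form of subunit IV, was at 84.8, 71.96 and 68.6 CPM in resistant and 176, 186 and 193 CPM in control libraries, with log2 fold changes of -1.30 ± 0.11 (SE, adjusted p = 7.73e-07) and -0.75 ± 0.065 (adjusted p = 1.56e-06). NDUFA4, now counted as a subunit of complex IV, was at 43.01, 45.8 and 42.6 CPM in resistant and 46.1, 56.01 and 41.6 CPM in control libraries and did not pass (log2 fold change -0.13, adjusted p = 0.362), but was lower after GC adjustment, at -1.05 ± 0.11 (adjusted p = 8.41e-06). NDUFA4L2, a hypoxia-induced paralog, was under 1.5 CPM in each library, and its call (log2 fold change -0.86, adjusted p = 0.0432) was lost in 5 of the 6 fits that left out a library. COX4I2, the lung form of subunit IV, had 1 count in all, in resistant replicate 1.

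**Figure D4:**
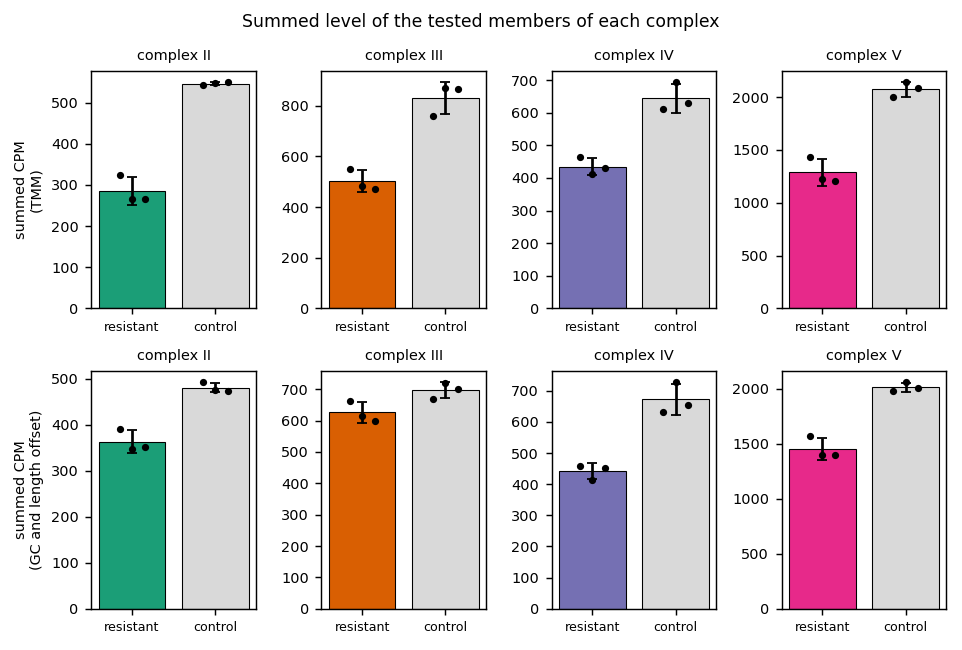
Summed level of the tested members of each complex, as TMM-scaled CPM (top) and as CPM after the GC and length offset (bottom). Bars are means with SD (n = 3 each) and points single libraries, resistant at left of control. The resistant bars are the lower ones in all 8 panels, and the ratio for complex III is 0.604 in the top row and 0.898 in the bottom row.

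In complex V 11 of 17 tested genes were lower and 6 did not pass. With edgeR 0 were higher, at an adjusted p or at an unadjusted p under 0.05, and DESeq2 also called 0 higher. In the GC-adjusted fit 14 were lower and 1 was higher, ATP5I. Over all genes, 36.9% were lower and 39.3% higher unadjusted, and 32.6% and 34.3% GC-adjusted. The summed level was 1433, 1225 and 1207 CPM in resistant libraries, against 2001, 2139 and 2082 CPM in control libraries, a ratio of 0.621 ± 0.064, or 0.720 ± 0.0521 after GC adjustment. Subunits alpha to epsilon form the catalytic head of the enzyme and its central stalk. ATP5B, the catalytic beta subunit, was at 484.5, 369 and 386 CPM in the resistant libraries, against 693, 768 and 753 CPM in the control libraries. It was 1.79-fold lower with no overlap, -0.84 ± 0.12 (SE, adjusted p = 3.67e-05) on the log2 scale and -0.36 ± 0.085 (adjusted p = 0.00274) GC-adjusted.

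ATP5A1, the alpha subunit that alternates with beta in the head, differed less. It was at 208.5, 179 and 171 CPM in resistant and 224, 211.5 and 197 CPM in control libraries. The lines overlapped, and the log2 fold change was -0.18 ± 0.11 (SE, adjusted p = 0.146). Without resistant replicate 1 it was lower, at -0.28 (adjusted p = 0.0107), and the GC-adjusted value of -0.22 ± 0.086 (adjusted p = 0.0416) lost its call in 4 of the 6 fits that left out a library. ATP5D, the delta subunit of the central stalk, had the largest unadjusted decrease of all members, at 39.5, 30.4 and 33.9 CPM in the resistant libraries, against 103.5, 117 and 125 CPM in the control libraries. With the highest GC content of the tested members (69.3%), its log2 fold change of -1.73 ± 0.13 (SE, adjusted p = 3.09e-07) became -0.30 ± 0.074 (adjusted p = 0.00349). ATP5C1, the gamma subunit that turns in the head, averaged 118 ± 4.46 CPM in the resistant line and 151 ± 11.3 CPM in the control line (SD, n = 3 each). Its decrease grew with the GC adjustment, with log2 fold changes of -0.35 and -1.07 ± 0.082 (adjusted p = 6.32e-07). ATP5E, the epsilon subunit, had 0, 1 and 0 counts in resistant libraries and 3, 4 and 0 in control libraries, and was too low to test. The counting program is not given in the sources used here, and whether reads of ATP5E were lost in counting was not tested.

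The c ring, the rotor in the membrane, is encoded by 3 genes whose mature proteins are identical. ATP5G2 was at 92.2, 70.9 and 67.1 CPM in the resistant libraries, against 209, 234 and 223 CPM in the control libraries, 2.89-fold lower, with a log2 change of -1.53 ± 0.13 (SE, adjusted p = 7.16e-07) and of -0.70 ± 0.074 (adjusted p = 8.04e-06) after GC adjustment. ATP5G1 was at 22.4, 16.4 and 14.2 CPM in resistant and 35.3, 40.03 and 37.7 CPM in control libraries, -1.09 ± 0.16 (SE, adjusted p = 4.51e-05) unadjusted and -0.62 ± 0.10 (adjusted p = 0.000277) GC-adjusted. ATP5G3 was at 50.3, 39.5 and 39.5 CPM in resistant and 68.4, 70.2 and 69.1 CPM in control libraries, -0.68 ± 0.12 (SE, adjusted p = 0.00023) unadjusted and -0.87 ± 0.090 (adjusted p = 6.73e-06) GC-adjusted. All 3 were lower in every resistant library than in any control library, in both fits. Per kilobase of transcript their levels were 94.6 in resistant and 273 in control libraries for ATP5G2, 51.2 in resistant and 82.2 in control libraries for ATP5G3 and 32.8 in resistant and 69.9 in control libraries for ATP5G1, in CPM per kilobase, so ATP5G2 was the most abundant of them in both lines.

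The stalk and membrane subunits varied. ATP5L (subunit g), ATP5J (coupling factor 6) and ATP5H (subunit d) had unadjusted log2 fold changes of -0.57, -0.43 and -0.22 and GC-adjusted ones of -1.12, -1.04 and -0.80. Of these ATP5H did not pass unadjusted (adjusted p = 0.101) and did without resistant replicate 1 (adjusted p = 0.0449) or control replicate 3 (adjusted p = 0.0358). ATP5J2 (subunit f) and ATP5O (the subunit that confers oligomycin sensitivity) were lower in both fits, with log2 fold changes of -0.60 and -0.36 unadjusted and -0.33 and -0.24 GC-adjusted. ATP5F1, subunit b of the stator, averaged 99.96 ± 1.87 CPM in the resistant line and 89.3 ± 5.24 CPM in the control line (SD, n = 3 each). It did not pass unadjusted (log2 fold change 0.16, adjusted p = 0.151), and its GC-adjusted value of -0.24 ± 0.070 (adjusted p = 0.011) lost its call without resistant replicate 2 (adjusted p = 0.051). ATP5I, subunit e, which helps the enzyme form dimers, was at 10.02, 9.996 and 9.02 CPM in resistant and 11.4, 9.01 and 10.8 CPM in control libraries. It overlapped and did not pass unadjusted (log2 fold change -0.10, adjusted p = 0.525), but was the higher member of the GC-adjusted fit at 0.50 ± 0.14 (adjusted p = 0.00702), a call that ended when control replicate 2 was left out (adjusted p = 0.0778).

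Some genes carry ATP5 names without being standard subunits. ATP5SL, newer name DMAC2, takes part in assembly of complex I, and was at 27.9, 29.3 and 28.5 CPM in resistant and 61.5, 64.6 and 70.8 CPM in control libraries, lower with a log2 change of -1.20 ± 0.11 (SE, adjusted p = 1.02e-06), and of -0.31 ± 0.088 (adjusted p = 0.00776) after GC adjustment. ATP5S, a coupling factor also called DMAC2L, was at 3.49, 3.48 and 4.05 CPM in resistant and 3.84, 3.71 and 2.91 CPM in control libraries and passed in neither fit (log2 fold change 0.076, adjusted p = 0.738 unadjusted). ATP5L2, a copy of ATP5L, stayed under 0.31 CPM, and the fusion transcript ATP5J2-PTCD1 was at 0. Exons of ATP5J overlap GABPA, those of ATP5I overlap MYL5, those of ATP5F1 overlap WDR77 and those of ATP5S overlap CDKL1 on the opposite strand, so reads of these pairs may be counted together.

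Compared per length, the members with the highest levels were the same in both lines. ATP5J2 stood at 365 in resistant and 554 in control libraries, ATP5B at 225 in resistant and 401 in control libraries and COX6A1 at 184 in resistant and 349 in control libraries, in CPM per kilobase. The rule left out 103 pseudogene and antisense rows. Their counts came to 0.161 to 0.181% of the members' counts in resistant libraries and 0.0609 to 0.0781% in control libraries.

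Among other respiratory chain genes, 26 of 63 tested were lower and 21 higher, and 27 were lower and 9 higher in the GC-adjusted fit. The unadjusted counts are near the shares of all genes, 36.9% lower and 39.3% higher, and GC-adjusted those shares were 32.6% and 34.3%. Complex II assembly factors gave 2 lower of 4 (3 GC-adjusted), and edgeR, also at an unadjusted p under 0.05, and DESeq2 called 0 higher. SDHAF2, which helps attach flavin to SDHA, was at 29.8, 32.8 and 29.9 CPM in resistant and 37.4, 44.4 and 45.99 CPM in control libraries, a log2 change of -0.47 ± 0.12 (SE, adjusted p = 0.003), and -0.81 after GC adjustment. SDHAF1 was under 2 CPM in each library, and its difference of -1.84 (adjusted p = 0.00196) was -0.47 ± 0.43 (adjusted p = 0.356) GC-adjusted. SDHAF4 did not pass (log2 fold change -0.53, adjusted p = 0.0799) and was lower after GC adjustment, at -1.14 ± 0.26 (adjusted p = 0.00216). SDHAF3, named after its values were seen, did not pass either (log2 fold change 0.16, adjusted p = 0.39) and was at -0.74 ± 0.14 (adjusted p = 0.000665) GC-adjusted. Complex III assembly factors gave 4 lower and 2 higher of 6, and 3 lower and 1 higher GC-adjusted. UQCC2 was at 28.04, 18.7 and 19.7 CPM in resistant and 54.5, 61.4 and 59.9 CPM in control libraries and lower in both fits (log2 fold changes of -1.40 and -0.63). LYRM7, a chaperone of the Rieske protein, was at 14.6, 14.7 and 15.6 CPM in resistant and 6.36, 7.07 and 6.38 CPM in control libraries, higher by 1.18 (adjusted p = 6.47e-06), but at -0.21 ± 0.13 (adjusted p = 0.172) after GC adjustment. BCS1L, which inserts the Rieske protein, was lower, at -1.07 (adjusted p = 2.36e-05), and GC-adjusted at -0.17 ± 0.094 (adjusted p = 0.137).

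Of 26 tested complex IV assembly genes, 9 were lower and 8 higher, and 11 were lower and 5 higher GC-adjusted, with no excess over the shares of all genes in the unadjusted fit (36.9% lower and 39.3% higher). The GC-adjusted shares of all genes were 32.6% lower and 34.3% higher. SURF1 had 6 to 10 counts a library and was not tested, and whether its reads were lost in counting was not examined. LRPPRC, which stabilises mitochondrial mRNAs, was at 183, 228 and 214 CPM in the resistant libraries, against 83.2, 71.6 and 67.5 CPM in the control libraries. It was 2.81-fold higher with no overlap, 1.49 ± 0.12 (SE, adjusted p = 5.86e-07) on the log2 scale and 1.08 ± 0.080 (adjusted p = 5.31e-07) GC-adjusted. SCO2, a copper chaperone of the oxidase, was at 4.28, 3.18 and 3.65 CPM in resistant and 11.6, 13.2 and 14.97 CPM in control libraries, with log2 fold changes of -1.84 and -0.42 ± 0.13 (adjusted p = 0.012). TACO1, which activates translation of the mitochondrial COX1 message, was lower in both fits, at -1.30 (adjusted p = 2.67e-06) and -0.21 ± 0.080 (adjusted p = 0.0384), but the GC-adjusted call was lost in 4 of the 6 fits that left out a library. HIGD1A, named after its values were seen, was higher unadjusted, at 0.41 (adjusted p = 0.0171), a call lost in 3 of those fits, and lower GC-adjusted, at -0.75 ± 0.093 (adjusted p = 2.57e-05). Of 7 assembly genes and accessory proteins of complex V, 4 were lower and 2 higher, and 4 were lower and 0 higher GC-adjusted, also 0 higher at an unadjusted p under 0.05 with edgeR. C14orf2, a small membrane protein of the ATP synthase, was at 15.8, 14.8 and 15.3 CPM in resistant and 27.3, 29.5 and 27.2 CPM in control libraries, with log2 fold changes of -0.87 ± 0.11 (SE, adjusted p = 1.53e-05) and -1.31 ± 0.087 (adjusted p = 2.51e-07). USMG5, another small protein of the ATP synthase, named after its values were seen, was higher at 0.35 (adjusted p = 0.016), a call lost without control replicate 3 (adjusted p = 0.137), and lower GC-adjusted, at -0.37 ± 0.084 (adjusted p = 0.00226). The assembly factors ATPAF1 and ATPAF2 were lower, at -0.68 (adjusted p = 0.000197) and -0.88 (adjusted p = 0.000491). GC-adjusted, ATPAF1 was at -0.73 ± 0.091 (adjusted p = 2.92e-05) and ATPAF2 at 0.11 ± 0.15 (adjusted p = 0.527). Cytochrome c itself, CYCS, was at 91.8, 106 and 102 CPM in resistant and 61.9, 56.5 and 55.2 CPM in control libraries, higher by 0.79 (adjusted p = 2.75e-05) but at -0.054 ± 0.065 (adjusted p = 0.481) GC-adjusted. HCCS, which attaches its haem, was lower in both fits, at -0.49 (adjusted p = 0.000837) and -0.59 ± 0.072 (adjusted p = 2.26e-05).

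Counted by gene, the mitochondrially encoded subunits were mostly higher before the GC adjustment, though COX1, the most abundant, did not pass and COX3 was lower. Of 6 tested, 4 were higher and 1 lower, and 0 were higher and 2 lower in the GC-adjusted edgeR fit. Among all genes, 39.3% were higher and 36.9% lower unadjusted, and 34.3% and 32.6% in the GC-adjusted fit. At an unadjusted p under 0.05 that fit had 1 higher, ATP8, at 0.31 ± 0.14 (adjusted p = 0.0713). ATP8 did pass as higher with an offset for GC content alone (log2 fold change 0.49, adjusted p = 0.00273), and with GC and length without resistant replicate 1 (adjusted p = 0.00166) or control replicate 1 (adjusted p = 0.0429). ATP8, a membrane subunit of complex V, was at 181, 291 and 280.3 CPM in the resistant libraries, against 102, 68.7 and 70.5 CPM in the control libraries, 1.64 ± 0.19 (SE, adjusted p = 8.83e-06) on the log2 scale. ATP6, whose reading frame overlaps that of ATP8 so that reads may be shared, was at 2069, 2629 and 2429 CPM in resistant and 1685, 902 and 1174 CPM in control libraries, 0.92 ± 0.19 (SE, adjusted p = 0.000687) unadjusted and 0.24 ± 0.16 (adjusted p = 0.205) GC-adjusted. CYTB, cytochrome b of complex III, was at 1637, 1594 and 1531 CPM in resistant and 1342, 1098 and 1300 CPM in control libraries, a difference of 0.35 (adjusted p = 0.00832) that was lost without control replicate 2 (adjusted p = 0.127) and was 0.080 ± 0.084 (adjusted p = 0.42) GC-adjusted. COX1, COX2 and COX3 form the core of complex IV. COX1 was at 13210, 11860 and 11590 CPM in resistant and 13150, 12970 and 15480 CPM in control libraries and did not pass (log2 fold change -0.18, adjusted p = 0.127), while its GC-adjusted value was -0.35 ± 0.091 (adjusted p = 0.00524). COX2 was at 3534, 3961 and 3679 CPM in resistant and 3497, 2446 and 2782 CPM in control libraries, with 0.36 (adjusted p = 0.0223) unadjusted, a call lost in 4 of the 6 fits that left out a library, and -0.069 ± 0.10 (adjusted p = 0.577) GC-adjusted. COX3 was at 3146, 3127 and 3159 CPM in resistant and 4322, 3792 and 4453 CPM in control libraries, lower in both fits, at -0.41 ± 0.096 (SE, adjusted p = 0.00182) and -0.77 ± 0.077 (adjusted p = 5.32e-06). The control libraries of ATP6 and ATP8 were spread, with control replicate 1 the highest for both.

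**Figure D5:**
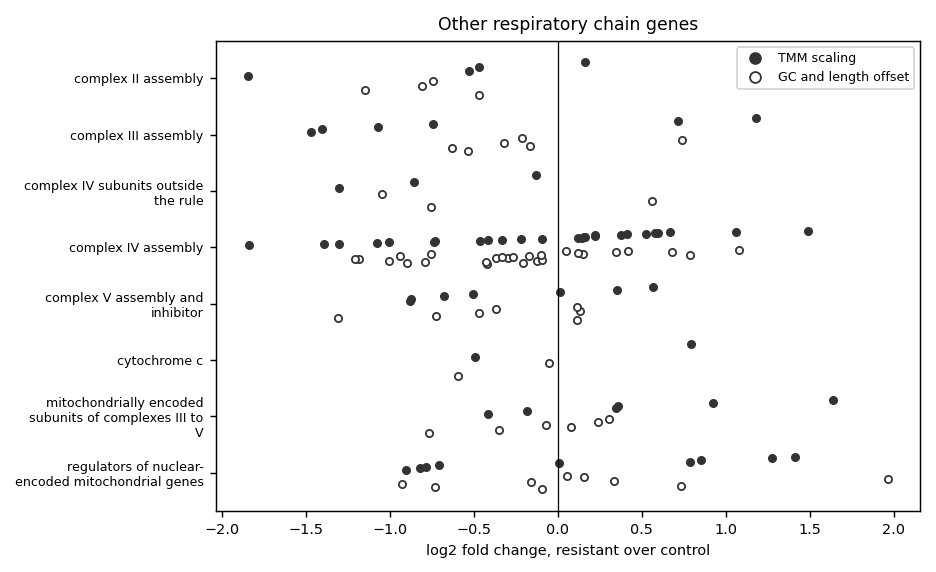
Log2 fold change (resistant over control) of 63 tested genes in 8 lists of other respiratory chain genes, with filled points unadjusted and open points after the GC and length offset. Complex IV assembly genes lie on both sides of 0, and the filled points above 1 in the mitochondrially encoded and regulator lists move toward 0 after the offset, while PPARGC1B, at 0.85 before it, is at 1.97 after it.

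Of 9 regulators of nuclear respiratory genes, 4 were higher and 3 lower, and 3 were higher and 1 lower GC-adjusted, where 39.3% and 36.9% of all genes were higher and lower unadjusted and 34.3% and 32.6% GC-adjusted. TFAM, which packages and transcribes mitochondrial DNA, was at 57.7, 69.7 and 76.2 CPM in resistant and 30.8, 29.8 and 23.6 CPM in control libraries, 1.27 ± 0.14 (SE, adjusted p = 5.04e-06) unadjusted and 0.16 ± 0.082 (adjusted p = 0.113) GC-adjusted. PPRC1, a coactivator, was at 177, 162.5 and 145 CPM in resistant and 288, 299.6 and 320.0 CPM in control libraries, -0.91 ± 0.11 (SE, adjusted p = 8.32e-06) unadjusted and -0.093 ± 0.070 (adjusted p = 0.259) GC-adjusted. GABPA, the DNA-binding subunit of GABP, was at 16.6, 27.3 and 25.7 CPM in resistant and 9.76, 7.72 and 8.72 CPM in control libraries, 1.41 ± 0.19 (SE, adjusted p = 2.16e-05) unadjusted and 0.054 ± 0.12 (adjusted p = 0.703) GC-adjusted. The next 4 genes were chosen after their values were seen. NRF1, whose motif is described above, was lower in both fits, at -0.82 (adjusted p = 5.25e-05) and -0.73 ± 0.096 (adjusted p = 4.04e-05). The genes higher in the GC-adjusted fit were PPARGC1B, a coactivator, at 1.97 ± 0.12 (adjusted p = 1.35e-07), GABPB1, the partner subunit of GABPA, at 0.33 ± 0.075 (adjusted p = 0.00198), and ESRRA, an orphan nuclear receptor, at 0.73 ± 0.086 (adjusted p = 1.85e-05). Unadjusted, PPARGC1B and GABPB1 were also higher, at 0.85 (adjusted p = 0.000239) and 0.79 (adjusted p = 4.85e-05), whereas ESRRA was lower, at -0.79 (adjusted p = 0.000342). PPARGC1A, also named after its values were seen, averaged 0.965 CPM in the resistant line and 1.58 CPM in the control line. It passed in neither fit, at -0.71 (adjusted p = 0.126) unadjusted and -0.93 ± 0.39 (adjusted p = 0.0556) GC-adjusted. With an offset for GC content alone it was lower, at -1.01 (adjusted p = 0.0388). YY1, whose core is described above, was also named after its values were seen. It averaged 54.97 CPM in the resistant line and 54.77 CPM in the control line. YY1 passed in neither fit, at 0.0054 (adjusted p = 0.966) unadjusted and -0.16 ± 0.083 (adjusted p = 0.108) GC-adjusted. With library sizes alone it was higher, at 0.35 (adjusted p = 0.018). Among members with a window, the NRF1 core was in 6 of 25 that were lower after GC adjustment and in 2 of 5 other tested ones, and the ETS core was in 11 of 25 and 3 of 5.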

How the data were processed

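Total RNA of sunitinib-resistant 786-O (7R) and control 786-O cells was sequenced as 3 libraries each. The authors deposited raw counts per gene symbol, 1 column per library. Columns equal to no sample title numbered 0. The aligner HISAT2 2.0.4 is named in the list of tools, per the submitters' processing notes. Not given in the sources used here are the build, the annotation, the counting program and its strand setting. The members and lists were chosen with earlier results of these data known.

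All genes kept by edgeR's filterByExpr (16642) entered the quasi-likelihood test of edgeR 4.0.16, run in R 4.3.3 on counts with TMM factors, with Benjamini-Hochberg adjustment over all of them at 0.05. A standard error is the size of the log2 fold change divided by the root of its F statistic. In the GC-adjusted fit, each library's log2 CPM deviations (prior count 1) were fitted with natural splines (6 degrees of freedom for GC content, 5 for log2 length), both taken as medians over GENCODE 29 basic transcripts, and the fit was an offset. All 48 members, 18 through a newer symbol, and 85.9% of tested genes had these values. A change tied to GC content for a biological reason is removed too. The tests were also run on simulated counts with noise drawn separately for each library, and that outcome is not given or used here.

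Levels in every library are given for all complex II genes, for up to 4 members of each other complex with the largest called increase and decrease (mean at least 5 CPM), the 2 with the highest CPM, the 2 nearest 0 and isoform sets, and for the mitochondrially encoded genes. Up to 3 genes with the smallest p are named from each other list, and 7 more, and PPARGC1A and YY1, were named after their values were seen. Same-numbered libraries of the lines did not deviate together (correlations -0.29, -0.04 and -0.16), so the numbers were not taken as pairs. Within each line the libraries differed by more than counting noise, with chi-square values of 8.94 to 62.9 per degree of freedom. DESeq2 1.42.0 was an alternative.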

Additional observations from a re-analysis of the deposited data

How the results depend on the processing

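Upper-quartile factors, DESeq2's size factors, DESeq2's Wald test and no filter on low counts changed no member's call, and a filter of 1 CPM in 3 libraries tested 40 members and added 1 call, UQCRHL. The replicate block, fitted although the numbers were not shown to pair the libraries, ended 1 member's call, SDHD (adjusted p = 0.0517), which left 0 higher members in complex II, and changed no other member's call.

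Library sizes alone gave 9 higher members, with 4 in complex III and 1 in complex V, and 7 lower members in complex V. The ratios of summed CPM were then 0.778 over all members, 0.663 for complex II, 0.767 for III, 0.856 for IV and 0.788 for V. It ended the calls of 6 members (ATP5C1, ATP5J, ATP5L, ATP5O, COX7A2 and UQCR10) and added higher calls for 4 (ATP5F1, COX7C, UQCRH and UQCRHL). With the GC and length offset the ratios were 0.746, 0.756, 0.898, 0.657 and 0.72, and per kilobase the ratio of complex III was 0.689. The higher members numbered 5 in the fit without offset. With GC and length they numbered 2 (0 in complex II, 1 in III, 0 in IV, 1 in V), with GC content alone 2 (0 in III, 0 in IV, 1 in V), and with the replicate block and the GC and length offset together 1 (0 in II, 0 in III, 0 in IV, 1 in V). Against the GC and length fit, GC content alone also added calls for SDHA and SDHD and ended those of CYC1, UQCRH, ATP5D (adjusted p = 0.0839) and ATP5J2 (adjusted p = 0.172). Of the other respiratory chain genes 9 were higher in each of these 3 fits, against 21 without an offset. With GC content alone 28 members were lower, where 4632 of 14289 genes were lower and 4865 higher. For the fits with the replicate block the shares of all genes are not given here.

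Some log2 fold changes of the genes named in the text changed sign. With library sizes alone they were 0.16 for ATP5A1, 0.12 for ATP5H, 0.24 for ATP5I, 0.21 for COX7A2L, 0.21 for NDUFA4 and 0.16 for COX1. With the GC and length offset they were -0.24 for ATP5F1, 0.50 for ATP5I, -0.27 for ATP5L2, -0.47 for COX7B, -0.96 for COX7C, 0.22 for CYC1, -0.0351 for UQCRB, -0.26 for UQCRH, -0.21 for LYRM7, 0.56 for NDUFA4L2, 0.11 for ATPAF2, -0.0539 for CYCS, -0.0685 for COX2, -0.74 for SDHAF3, -0.75 for HIGD1A, -0.37 for USMG5 and 0.73 for ESRRA. With GC content alone they were -0.40 for ATP5F1, 0.73 for ATP5I, -0.18 for ATP5L2, -0.33 for COX7B, -0.84 for COX7C, 0.19 for CYC1, 0.0124 for UQCR11, -0.0416 for UQCRC2, -0.11 for UQCRH, -0.0907 for LYRM7, 0.56 for NDUFA4L2, 0.13 for ATPAF2, -0.0319 for CYCS, -0.86 for SDHAF3, -0.77 for HIGD1A, -0.23 for USMG5 and 0.65 for ESRRA. With the replicate block and that offset together they were -0.24 for ATP5F1, 0.51 for ATP5I, -0.21 for ATP5L2, -0.46 for COX7B, -0.96 for COX7C, 0.22 for CYC1, -0.0310 for UQCRB, -0.25 for UQCRH, -0.21 for LYRM7, 0.50 for NDUFA4L2, 0.11 for ATPAF2, -0.0538 for CYCS, -0.0569 for COX2, -0.74 for SDHAF3, -0.75 for HIGD1A, -0.36 for USMG5 and 0.73 for ESRRA. Among all 63 other respiratory chain genes 15 changed sign with the GC and length offset, 6 of them not listed above, and 3 (HIGD1A, USMG5 and ESRRA) passed in opposite directions in the 2 fits. YY1 is among those not listed, at -0.16 with GC and length and -0.034 with GC content alone. The cause was not tested.

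Leaving out 1 library at a time, the members called higher numbered 3 to 5 over all complexes without an offset and 0 to 3 with it. In complex II they numbered 0 to 1 without an offset and 0 to 1 with it, in III 1 to 2 without an offset and 0 to 1 with it, in IV 2 without an offset and 0 with it and in V 0 without an offset and 0 to 2 with it. The members called lower numbered 26 to 28 over all complexes without an offset and 26 to 31 with it, and in complex III 6 without an offset and 3 to 6 with it. Other respiratory chain genes called higher numbered 17 to 21 without an offset and 8 to 11 with it. The ratio of summed CPM over all members lay between 0.578 and 0.629. The shares of all genes called in these fits are not given here, so these counts stand without a background.

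Over these fits, with and without the offset, the log2 fold changes of named genes that changed sign, YY1 aside, ranged over -0.29 to 0.17 for ATP5F1, -0.25 to 0.53 for ATP5I, -0.57 to 0.49 for ATP5L2, -0.0728 to 0.52 for ATP5S, -0.0957 to 0.87 for COX6C, -0.62 to 0.66 for COX7B, -1.07 to 0.14 for COX7C, -1.32 to 0.26 for CYC1, -0.13 to 1.39 for UQCRB, -0.0464 to 0.40 for UQCRC2, -0.36 to 0.0735 for UQCRH, -0.34 to 1.19 for LYRM7, -1.02 to 0.89 for NDUFA4L2, -1.07 to 0.18 for ATPAF2, -0.0947 to 0.84 for CYCS, -0.0384 to 0.37 for CYTB, -0.22 to 0.46 for COX2, -0.0347 to 1.59 for GABPA, -0.82 to 0.22 for SDHAF3, -0.84 to 0.51 for HIGD1A, -0.48 to 0.37 for USMG5 and -0.95 to 0.76 for ESRRA. YY1 ranged over -0.0847 to 0.0405 without the offset.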
